A study of Mus musculus with 12 samples.

Results

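Vitronectin (Vtn) and 9 integrin subunit genes were followed in retinal RNA that was recovered through tagged ribosomes. They are Itgav, Itgb1, Itgb3, Itgb5, Itgb8, Itga1, Itga5, Itga7 and Itga8. Members were taken by gene symbol, which found 10 of the 53090 rows in each table, 1 row per gene, and all 10 passed the filter on low counts that left 18638 genes. The mice were C57BL/6, retinal pericytes are the labelled cell type, and RNA was purified by a pulldown through the HA tag. Both groups had received tamoxifen on postnatal days 1 and 2. The retinas came from pups at postnatal day 9 (P9, 6 libraries) or day 3 (P3, 6 libraries). The labels do not name the driver of the tag, and they do not say whether a library holds 1 animal. P-values therefore reflect only how far these libraries vary, and that variation may be technical. The time since tamoxifen was longer at P9 and cannot be told apart from age. Per its design text, the study sought signatures of mural cells, the cells that wrap vessels, at both ages of retinal vessel growth.

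Integrins are receptors of 1 alpha and 1 beta chain that join the extracellular matrix to the actin cytoskeleton. Vitronectin is a glycoprotein of plasma and matrix that binds integrins of the alpha v family through an RGD motif. The alpha v chain pairs with beta 1, beta 3, beta 5, beta 6 or beta 8, whereas alpha 1, alpha 5, alpha 7 and alpha 8 pair with beta 1. Pericytes sit inside the vascular basement membrane, so these receptors face laminin, collagen IV and fibronectin there. Brain pericytes are known to make vitronectin, and so are photoreceptors of the retina.

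The libraries held 32506999 to 37776172 expected counts at P9 and 26839599 to 33514282 at P3. Correlations of log2 CPM (counts scaled to library size by TMM factors) over tested genes were 0.960 to 0.974 within P9, 0.952 to 0.970 within P3 and 0.882 to 0.945 between the ages. The pericyte markers were present, with 11 of 12 called higher at P9, and their summed level ran from 2789 to 6386 CPM at P9 and from 379 to 1404 CPM at P3. P3 replicates 4 and 5 had the highest pericyte marker means of their age, 5.46 log2 CPM each, against 3.70 to 4.57 in the other P3 libraries. Rod photoreceptor markers were present too, all 10 called higher, at 7448 to 15497 CPM summed at P9 and 1279 to 2817 CPM at P3. P3 replicates 4 and 5 also had the highest rod marker means of their age, 7.14 and 6.99 log2 CPM, against 5.64 to 6.29 in the others. Both also correlated more closely with each P9 library than the other P3 libraries did. The 12 endothelial markers summed to 728 to 847 CPM at P9 and 914 to 1052 CPM at P3, with 6 called higher and 1, Kdr, lower. Kdr made up most of that sum, and the other 11 summed to 128 to 257 CPM at P9 and 33.7 to 126.8 CPM at P3. Bipolar cell markers were all 6 called higher, at 1006 to 1841 CPM at P9 and 85.8 to 113 CPM at P3. Lens markers were all 6 called lower, at 28.1 to 638 CPM at P9 and 2214 to 6289 CPM at P3. No pericyte, bipolar, lens, rod or endothelial marker was at 0 in every library. In such bulk RNA, more cells of a type and more RNA per cell cannot be told apart, and the parts of these cell types in the results below were not tested.

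RefSeq (GRCm38.p6) gave a promoter for 8 of the 10 members, and Itgb3 and Itga7 had none there. The 250 bases before the start are shown for Vtn and Itga1, with 2 of the 3 highest log2 fold changes among the members, and for Itgb8, which fell. The windows of Itga8, with 41 bases, and of Itgav, with all 250, lie inside the span annotated for the gene. Both are in the counts of motifs and are not printed. Capitals mark matches on either strand to the E-box CANNTG, the TATA box TATAAA, the TEAD motif GGAATG, the GC box GGGCGG and the RBPJ motif GTGGGAA.
Vtn, chr11:78498870-78499119, plus strand: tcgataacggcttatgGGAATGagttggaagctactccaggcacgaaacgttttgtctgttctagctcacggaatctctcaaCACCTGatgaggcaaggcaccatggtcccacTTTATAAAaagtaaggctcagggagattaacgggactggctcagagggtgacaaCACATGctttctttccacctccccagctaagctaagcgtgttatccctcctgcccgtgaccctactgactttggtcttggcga
Itga1, chr13:115101965-115102214, minus strand: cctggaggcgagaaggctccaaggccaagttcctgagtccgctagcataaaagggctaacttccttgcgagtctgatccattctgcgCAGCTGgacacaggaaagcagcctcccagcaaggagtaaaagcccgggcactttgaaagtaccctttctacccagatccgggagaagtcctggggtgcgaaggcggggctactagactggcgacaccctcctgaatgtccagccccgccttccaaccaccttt
Itgb8, chr12:119238277-119238526, minus strand: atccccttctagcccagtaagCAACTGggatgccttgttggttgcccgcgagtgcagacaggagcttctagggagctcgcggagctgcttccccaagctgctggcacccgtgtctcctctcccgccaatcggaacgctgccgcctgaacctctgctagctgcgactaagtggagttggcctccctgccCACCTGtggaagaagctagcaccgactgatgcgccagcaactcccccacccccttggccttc
An E-box lay in 6 of the 8 windows, against 66.2% of 32851 mouse windows of the same length. The TATA box was found before Vtn alone among the 8, as 2 overlapping matches on the 2 strands 130 to 137 bases before the start, and 12.4% of all windows held one. The TEAD motif lay before Vtn and Itgb1, against 12.6% of all windows. The GC box lay before Itgb1, Itgb5 and Itga5, against 32.7%. The RBPJ motif (5.42% of all windows) and the CArG box (1.47%) had no match in the 8 windows. The Vtn window was 50.4% G and C and the other 7 were 55.6% to 68%, against a median of 52.4% over all windows. The motifs were chosen with the sequences in view, and a match describes letters only.

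Most of these genes were higher at P9. Of the 10 members, 8 were called higher, Itgb8 was called lower and Itga5 was not called, by the quasi-likelihood test of edgeR at an adjusted p of 0.05. Over all 18638 genes tested 26.1% were called higher and 25.6% lower, 51.8% in either direction. For 5 members, Vtn, Itgav, Itga1, Itga7 and Itga8, the 6 P9 libraries all lay above the 6 P3 libraries, as they did for 16.3% of all genes. For no member did all P9 libraries lie below, as they did for 15.4% of all genes, and 31.7% did not overlap in either direction. The median log2 fold change was 1.03 over the members and -0.0018 over all tested genes. Log2 fold changes are P9 over P3 throughout.

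**Figure D1:**
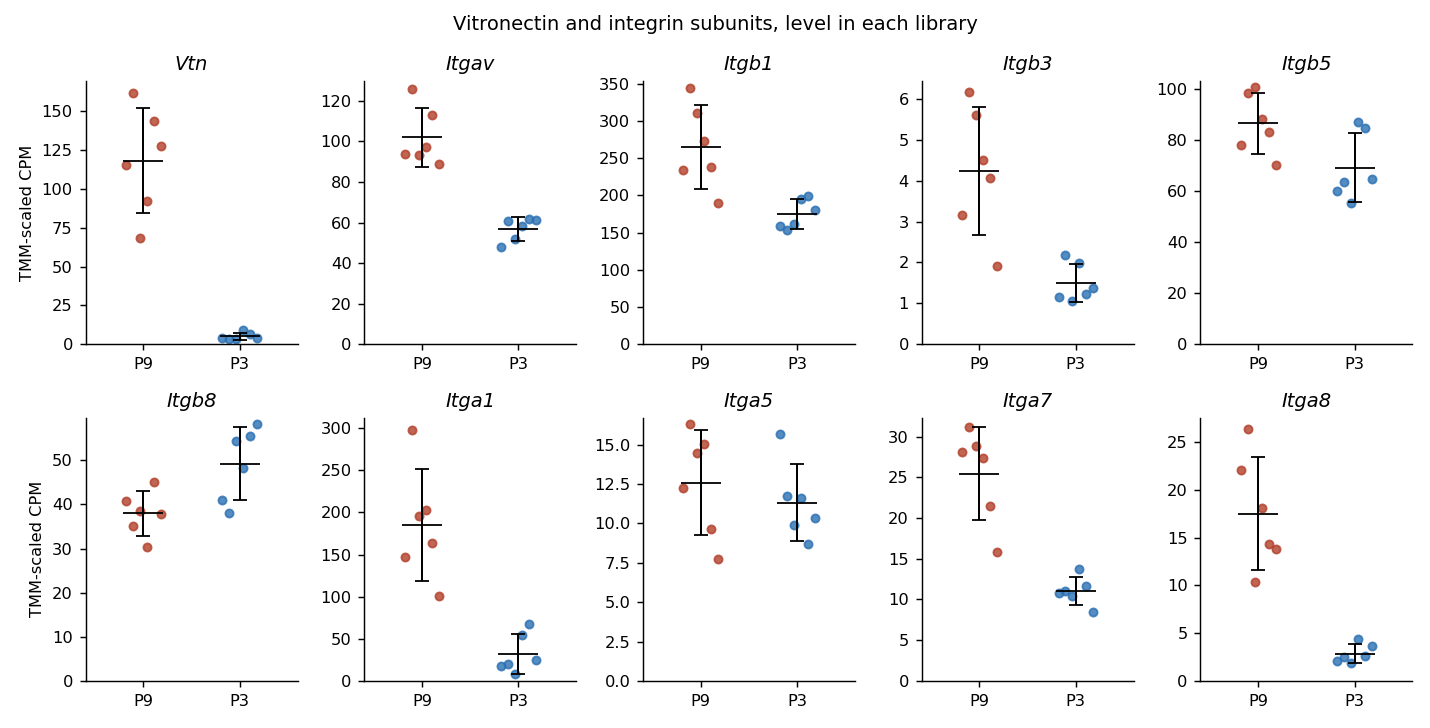
Level of each member in every library, in CPM scaled by TMM factors (vertical axes, each starting at 0), with P9 left of P3. Points are the 6 libraries of an age, the bar is the mean and the whiskers are the SD. Vtn lay between 68.7 and 162 CPM at P9 and between 3.32 and 9.36 CPM at P3, and Itgb8 is the member with the lower mean at P9.

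Vtn (ENSMUSG00000017344.4, chromosome 11, 78499120 to 78502325 in mm10) changed most. Its lowest, median and highest levels were 68.7, 122 and 162 CPM at P9, against 3.32, 3.72 and 9.36 CPM at P3. Every P9 library was thus far above every P3 library, and within P3 the libraries of replicates 4 and 5, at 9.36 and 6.50 CPM, stood above the other 4. The mean was 118 ± 33.9 CPM at P9 and 5.03 ± 2.43 CPM at P3 (SD, n = 6 each), a log2 fold change of 4.55 ± 0.29 (SE; edgeR adjusted p = 3.995e-08), or 23.4-fold. Of all tested genes, 99.79% had the same or a lower log2 fold change. The values rest on 2592 to 6224 counts per library at P9 and on 92 to 315 at P3. Without P3 replicates 4 and 5 the log2 fold change was 5.05.

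The alpha v chain, with which vitronectin receptors are built, rose less. Itgav (ENSMUSG00000027087.11, chromosome 2, 83722303 to 83806917) had a lowest, median and highest level of 89.1, 95.4 and 126 CPM at P9, against 47.7, 59.5 and 61.7 CPM at P3. The ages did not overlap, and the libraries of each age lay close together, with a coefficient of variation of 14.1% at P9 and 10.2% at P3. The means of 102 ± 14.3 CPM at P9 and 56.9 ± 5.83 CPM at P3 (SD, n = 6 each) gave a log2 fold change of 0.84 ± 0.098 (SE; edgeR adjusted p = 5.94e-06).

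The beta chains that can pair with alpha v went different ways. Itgb3 (ENSMUSG00000020689.4, chromosome 11, 104608000 to 104670476), the beta chain of the classical vitronectin receptor and also a platelet integrin, was at 1.90, 4.28 and 6.18 CPM (lowest, median, highest) at P9, against 1.05, 1.31 and 2.18 CPM at P3. Only P9 replicate 6, at 1.90 CPM, fell within the range of P3. The log2 fold change was 1.499 ± 0.30 (SE; edgeR adjusted p = 0.000692), from 27 to 238 counts per library. Of 4 platelet markers only 1 had enough counts to be tested and it was not called. Their sum was 7.49 to 12.9 CPM at P9 and 10.2 to 17.1 CPM at P3. Gp1bb, the marker tested, made up most of that sum, at 7.37 to 12.3 CPM at P9 and 9.86 to 16.9 CPM at P3. Pf4 averaged 0.197 CPM at P9 and 0.249 CPM at P3, and Ppbp and Gp9 were lower still. The sum therefore describes little beyond Gp1bb.

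Itgb5 (ENSMUSG00000022817.14, chromosome 16, 33829665 to 33949338), which forms the alpha v beta 5 vitronectin receptor also used by the pigment epithelium, was at 70.35, 85.7 and 100.9 CPM at P9, against 55.4, 64.1 and 87.2 CPM at P3. The ages overlapped, since P3 replicates 4 and 5 had 87.2 and 84.7 CPM. Its log2 fold change of 0.32 ± 0.12 (SE; edgeR adjusted p = 0.0423) had the largest adjusted p among the 9 members called. The call ended when P3 replicate 1, 2, 3 or 6 was left out (0.0888, 0.0848, 0.0975 and 0.0804 in that order) and when P9 replicate 2, 3, 4 or 5 was (0.0915, 0.0948, 0.0672 and 0.0564). It was also lost with library totals in place of TMM factors (0.0517). Pigment epithelium markers summed to 37.9 to 68.5 CPM at P9 and 13.6 to 22.3 CPM at P3, with 3 of 6 called higher, and their part was not tested.

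Itgb1 (ENSMUSG00000025809.15, chromosome 8, 128685654 to 128733579), the common partner of the collagen, laminin and fibronectin receptors, was at 189, 255 and 344 CPM at P9, against 153, 171 and 199.7 CPM at P3. P9 replicate 6, at 189 CPM, was the P9 library inside the P3 range. The mean was 265 ± 56.2 CPM at P9 and 175 ± 19.6 CPM at P3 (SD, n = 6 each), with a log2 fold change of 0.60 ± 0.13 (SE; edgeR adjusted p = 0.00124).

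Itgb8 (ENSMUSG00000025321.14, chromosome 12, 119162803 to 119238276) was the member that fell. The alpha v beta 8 integrin activates latent TGF-beta, and in the developing retina it is known from neuroepithelial and glial cells next to the vessels. It was at 30.3, 38.1 and 45.2 CPM at P9, against 37.997, 51.3 and 58.2 CPM at P3. The ages overlapped, with P3 replicates 1 and 2, at 41.0 and 37.997 CPM, inside the P9 range. The log2 fold change was -0.38 ± 0.12 (SE; edgeR adjusted p = 0.0155), and the call was lost without P3 replicates 4 and 5 together (adjusted p = 0.0532). Markers of Müller glia moved in both directions, with 4 of 6 called higher and 1 lower, and their sum was 1046 to 1607 CPM at P9 and 879 to 1237 CPM at P3. Of 8 progenitor markers 7 were called lower and 1 higher. The part of these cells in the lower Itgb8 level was not tested.

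Set against each other within each library, the 4 beta chains changed unequally. All 6 pairs passed an exact permutation test over every assignment of the libraries to the ages (two-sided, adjusted over the 6 pairs). The share of pairs of other genes that would pass was not computed. The log2 ratio of Itgb3 to Itgb8 was -3.23 ± 0.68 at P9 and -5.02 ± 0.58 at P3 (SD, n = 6 each), a difference of 1.79 (exact permutation adjusted p = 0.00649). The ratio of Itgb1 to Itgb8 was higher by 0.95 and that of Itgb5 to Itgb8 by 0.70, with no overlap between the ages (exact permutation adjusted p = 0.00649 each; 0.00216 is the smallest unadjusted p the test can give). Itgb3 also gained on Itgb1 by 0.84 (exact permutation adjusted p = 0.0130). Itgb5 fell relative to Itgb3, with a difference of -1.09 (exact permutation adjusted p = 0.00649), and relative to Itgb1, with a difference of -0.25 (exact permutation adjusted p = 0.0152). The last pair did not pass without P3 replicates 4 and 5 (adjusted p = 0.0667). Ratios of CPM carry the unequal lengths of the genes, so their changes can be compared and their absolute values cannot.

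Among the 4 member alpha chains that pair with beta 1 alone, Itga8 and Itga1 had the highest log2 fold changes. Itga8 (ENSMUSG00000026768.10, chromosome 2, 12106632 to 12301985), whose product with beta 1 binds nephronectin and is known from mesenchymal and smooth muscle cells, was at 10.4, 16.3 and 26.4 CPM at P9, against 1.90, 2.59 and 4.43 CPM at P3. No P9 library reached down to the P3 range, and the lowest of the P9 libraries was replicate 3, as for Vtn. The log2 fold change was 2.61 ± 0.26 (SE; edgeR adjusted p = 1.24e-06), from 393 to 1015 counts per library at P9 and 49 to 149 at P3.

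Itga1 (ENSMUSG00000042284.10, chromosome 13, 114958079 to 115101964), the alpha chain of a receptor for collagen IV and laminin, was at 101, 179.8 and 298 CPM at P9, against 8.22, 22.2 and 67.5 CPM at P3. It varied more among P3 libraries than any other member, 8.21-fold between the highest and the lowest, with P3 replicates 4 and 5 at 54.8 and 67.5 CPM and the other 4 at 8.22 to 24.5 CPM. The mean was 185 ± 66.5 CPM at P9 and 32.2 ± 23.4 CPM at P3 (SD, n = 6 each), a log2 fold change of 2.52 ± 0.43 (SE; edgeR adjusted p = 0.000170). Without P3 replicates 4 and 5 it was 3.39.

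Itga7 (ENSMUSG00000025348.9, chromosome 10, 128933421 to 128958286), a laminin receptor chain of muscle cells, was at 15.9, 27.7 and 31.2 CPM at P9, against 8.46, 10.9 and 13.7 CPM at P3. The ages did not overlap, and the log2 fold change was 1.21 ± 0.16 (SE; edgeR adjusted p = 1.83e-05). Smooth muscle markers moved in the same libraries, with 5 of 6 tested called higher and a summed level of 291 to 428 CPM at P9 and 106 to 179 CPM at P3, and their part was not tested.

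Itga5 (ENSMUSG00000000555.7, chromosome 15, 103344286 to 103366791), the alpha chain of the fibronectin receptor, was at 7.76, 13.4 and 16.3 CPM at P9, against 8.69, 10.954 and 15.7 CPM at P3. The ages overlapped over most of their range, the lowest library of all was P9 replicate 6, and no difference was called (log2 fold change 0.15 ± 0.19, SE; edgeR adjusted p = 0.522). Fn1, the gene of its ligand fibronectin, named after its values were seen, was not called either, at 824 ± 132 CPM at P9 and 1056 ± 281 CPM at P3 (SD, n = 6 each). Fn1 was called lower by DESeq2 (adjusted p = 0.0364) and without P3 replicate 1 or 3 (edgeR adjusted p = 0.0383 and 0.0368).

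Relative to Itgb1 in the same library, 3 alpha chains gained by exact permutation tests adjusted over 5 ratios. The share of all genes that would gain on Itgb1 in this way was not computed. The log2 ratio to Itgb1 was higher at P9 by 2.20 for Itga1, by 2.01 for Itga8 and by 0.61 for Itga7, with no overlap between the ages (exact permutation adjusted p = 0.00361 each). For Itgav the difference of 0.26 did not pass (exact permutation adjusted p = 0.0606). It passed without P3 replicate 2 (0.0298) or P9 replicate 3 (0.0189). For Itga5 the ratio fell by 0.45 (exact permutation adjusted p = 0.0298). This difference did not pass when P3 replicate 1 was left out (0.0595), nor when P9 replicate 2 (0.0514), 5 (0.0676) or 6 (0.0676) was. With P9 replicates 5 and 6 both left out it had an adjusted p of 0.161.

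**Figure D2:**
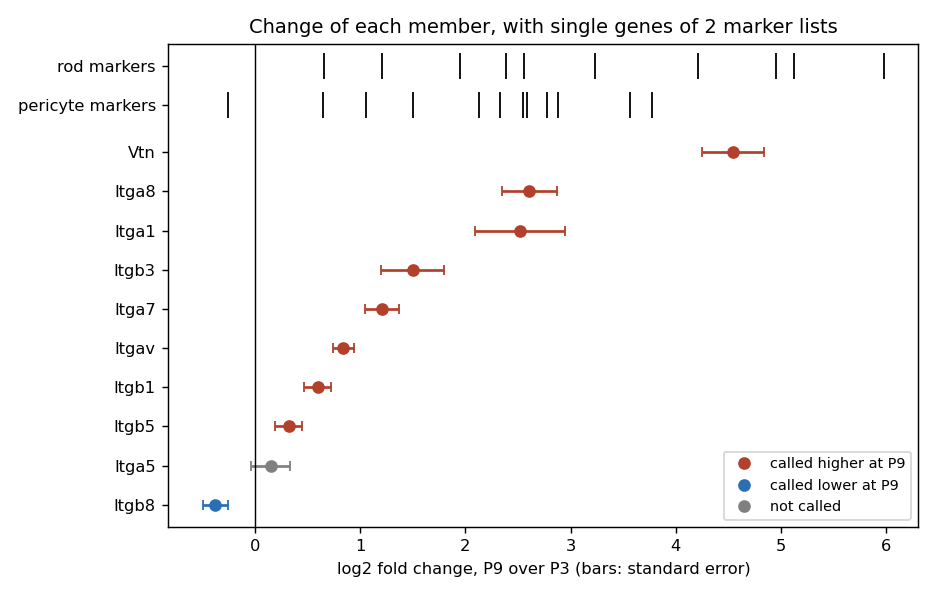
Log2 fold change of each member, P9 over P3 (horizontal axis), with its standard error as a bar, coloured by whether the adjusted p was under 0.05. Vertical ticks above are the single genes of the pericyte and rod marker lists. Vtn, at 4.55, lay beyond all 12 pericyte markers, whose highest value was 3.78, and Itgb8 was the lowest member at -0.38.

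Since pericyte markers were higher at P9, each member was also set against their mean log2 CPM in the same library. Vtn gained on that mean by 2.32, with log2 ratios of -0.11 ± 0.57 at P9 and -2.43 ± 0.34 at P3 (SD, n = 6 each; exact permutation adjusted p = 0.00309 over 10 members). Itga8 was higher by 0.31 with overlapping ages (exact permutation adjusted p = 0.316). Itga1 was higher by 0.50 (exact permutation adjusted p = 0.0361). Leaving out any single library among P3 replicates 1, 2 and 3 and P9 replicates 1 to 5 ended that call (adjusted p of 0.0529 to 0.0842), as did the use of Pdgfrb, Cspg4 and Rgs5 alone for the mean (0.459). The pericyte markers had a median log2 fold change of 2.44, against -0.0018 over all tested genes. A gene without change would therefore fall relative to them. The other 7 members fell relative to the pericyte markers, and the share of all genes that did so was not computed. The differences were -0.86 for Itgb3, -1.09 for Itga7, -1.44 for Itgav, -1.70 for Itgb1, -1.95 for Itgb5, -2.15 for Itga5 and -2.65 for Itgb8. Of these the ages overlapped for Itgb3 only (exact permutation adjusted p = 0.0216, and 0.00309 for each of the other 6), and its call was lost without P9 replicates 5 and 6 (0.0688).

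**Figure D3:**
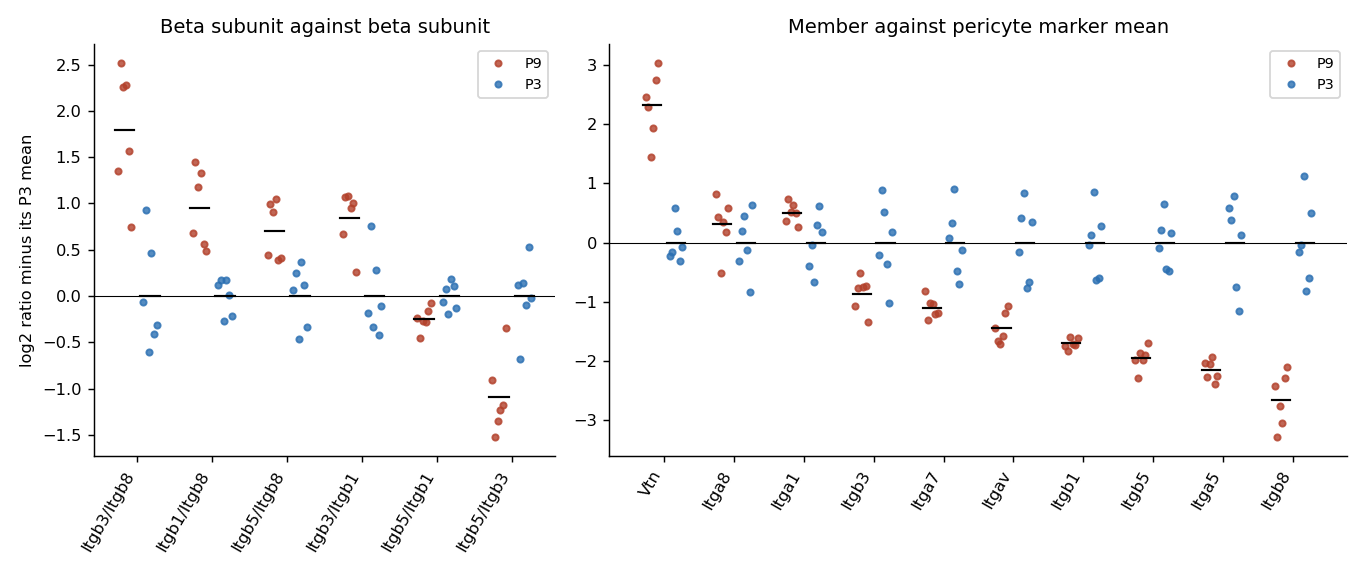
Log2 ratios in each library, shown minus their P3 mean (vertical axes), for pairs of beta chains (left) and for members against the pericyte marker mean (right), with P9 left of P3 in each pair of columns. Points are libraries and bars are means of 6. Vtn is the member whose 6 P9 libraries all lay above its P3 libraries in the right panel, with a difference of 2.32, and Itgb8 lay lowest with -2.65.

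The members were also set against the pericyte markers from library to library within an age. Among the P9 libraries, replicate 2 had the highest level of 8 members and replicate 6 the lowest of 7. The share of all genes at their highest or lowest in these libraries was not computed. The pericyte marker mean was also highest in replicate 2 (7.47 log2 CPM) and lowest in replicate 6 (6.39). Correlations with that mean were computed over the 6 libraries of each age, 20 in all. At P9, 6 of 10 members passed by Pearson's r and 2 by Spearman's rho after adjustment, and at P3, 3 and 0. Over all tested genes, 2.61% had an r at or above 0.88, the lowest that passed at P9, and 4.71% had one at or above 0.87, the lowest that passed at P3. Itgb1 at P9 had r = 0.97 (exact permutation p = 0.00139, adjusted p = 0.0139) and rho = 1 (exact permutation p = 0.00278, adjusted p = 0.0278), and r = 0.98 without replicates 2 and 6, the 2 libraries farthest from the median. Itgb3 at P9 had r = 0.94 with the same p-values and the same rho, and 0.90 without those 2.

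Itga1 had r = 0.99 at P9 (exact permutation p = 0.00694, adjusted p = 0.0347; rho = 0.94, exact permutation p = 0.0167, adjusted p = 0.0833), and 0.93 without replicates 2 and 6. At P3 it had r = 0.98 (exact permutation p = 0.0111, adjusted p = 0.0347; rho = 0.77, exact permutation p = 0.103, adjusted p = 0.228), and 0.91 without replicates 4 and 5. Vtn had r = 0.021 at P9 (exact permutation p = 0.978, adjusted p = 0.978; rho = 0.029, exact permutation p = 1, adjusted p = 1). Its r of 0.87 at P3 (exact permutation p = 0.0194, adjusted p = 0.0432; rho = 0.89, exact permutation p = 0.0333, adjusted p = 0.111) rested on replicates 4 and 5 and was 0.20 without them. Without replicates 2 and 6 the P9 value of Vtn was -0.93.

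The genes most like Vtn were looked for by Pearson's r of deviations from the age mean over the 12 libraries. The search covered 10438 other genes whose mean reached 10 CPM, after symbols of gene models and pseudogenes were removed. Those symbols were Gm plus digits, any ending in Rik and any containing -ps. The first 5 were Chst2, a sulfotransferase gene (r = 0.97), Gucy2f, a guanylate cyclase of photoreceptors (0.95), Cplx1, a complexin of synapses (0.93), Mfap3l (0.92) and Grik1, a glutamate receptor subunit of the bipolar marker list (0.92). Gucy2f averaged 97.8 CPM at P9 and 4.65 CPM at P3, and Grik1 82.3 and 5.80 CPM. Of the pericyte markers Abcc9 was closest with r = 0.77, then Kcnj8 with 0.74, and Pdgfrb had 0.64. Among the members Itga8 (0.63) and Itga1 (0.60) were closest to Vtn, Itgb1 had 0.22 and Itga5 -0.26. Among the 10438 genes Itga8 ranked 1077 and Itga1 1327, and Abcc9, Kcnj8 and Pdgfrb ranked 326, 440 and 1057. The libraries share depth and tissue in all these values, which are given as a description.

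After this was seen, the rod marker mean was used in place of the pericyte marker mean. Vtn gained on the rod markers by 1.36, with log2 ratios of -2.75 ± 0.33 at P9 and -4.11 ± 0.25 at P3 (SD, n = 6 each; exact permutation adjusted p = 0.00309 over 10 members). Among the P9 libraries its r with the rod mean was 0.77 (exact permutation p = 0.0694, adjusted p = 0.201; rho = 0.60, exact permutation p = 0.242, adjusted p = 0.322), and -0.56 without replicates 3 and 4. At P3 it was 0.91 (exact permutation p = 0.0153, adjusted p = 0.102; rho = 0.83, exact permutation p = 0.0583, adjusted p = 0.233) and 0.036 without replicates 4 and 5. Of the 10 members, 2 passed with the rod mean by Pearson's r at P3 and 0 at P9, and 0 passed by rho. At P3 these were Itgb5 (r = 0.99, exact permutation adjusted p = 0.0278, and 0.98 without replicates 4 and 5) and Itga1 (r = 0.96, exact permutation adjusted p = 0.0417). The share of all genes with such an r was not computed. The rod and pericyte means themselves had r = -0.59 over the P9 libraries and 0.94 over the P3 libraries (n = 6 each). How much of the Vtn signal came from rods was not tested.

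**Figure D4:**
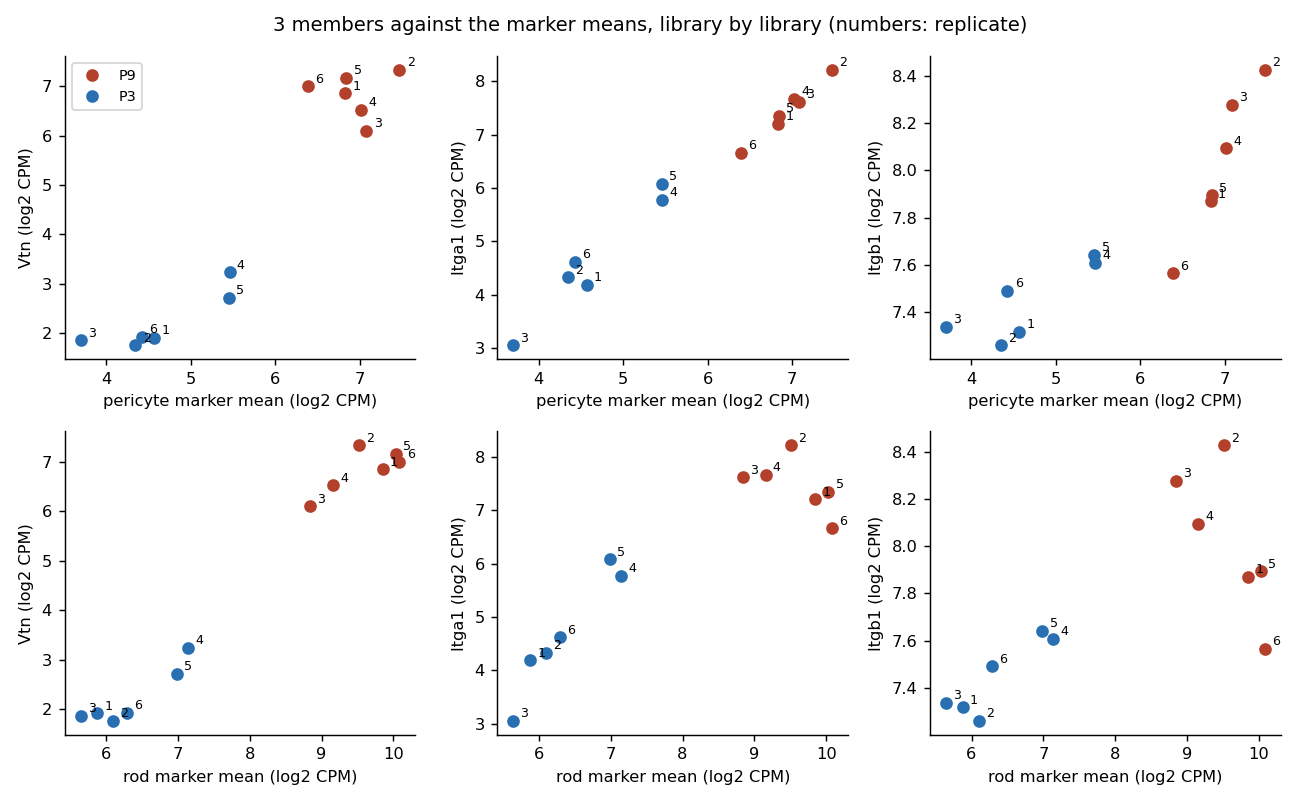
Log2 CPM of Vtn, Itga1 and Itgb1 (vertical axes) against the mean log2 CPM of pericyte markers (top) and of rod markers (bottom) in each library, with the replicate number beside each point. Among the P9 libraries Itga1 rises with the pericyte mean (r = 0.99), and Vtn does not (r = 0.021).

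The integrin genes outside the member list were mixed. Of 12 tested alpha chain genes, 3 were called higher and 2 lower, and of 3 tested beta chain genes 1 was higher and 1 lower. Over all tested genes 26.1% were called higher and 25.6% lower. Itga4, a receptor chain for fibronectin and VCAM-1, averaged 209.9 ± 27.006 CPM at P9 and 75.5 ± 17.2 CPM at P3 (SD, n = 6 each; log2 fold change 1.47 ± 0.14, SE; edgeR adjusted p = 6.73e-07). Itga9 rose by 0.64 on the log2 scale to 16.7 ± 1.80 CPM and Itga11, a collagen receptor chain, by 1.04 to 2.83 ± 0.426 CPM. Itga2, the other classical collagen receptor chain, was lower, at 5.89 ± 2.48 CPM at P9 and 21.2 ± 5.32 CPM at P3 (edgeR adjusted p = 2.57e-05). Itga10 was lower as well (log2 fold change -0.62), but not without P9 replicates 5 and 6 (edgeR adjusted p = 0.0783).

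The laminin receptor chains Itga3 and Itga6 were not called with all libraries, at 68.3 and 43.8 CPM at P9 and 76.4 and 41.1 CPM at P3. Itga3 was called lower without P3 replicate 3 or 6 (edgeR adjusted p = 0.0315 and 0.0491). Nor were Itga2b of platelets (4.70 CPM at P9 and 5.38 CPM at P3) and the myeloid chains Itgam (3.95 and 2.94 CPM) and Itgax (1.30 and 0.678 CPM), although Itgax was called higher without P3 replicate 2 (edgeR adjusted p = 0.0369). Itgb2, the leukocyte beta chain, was called higher at 1.46 CPM at P9 against 0.579 CPM at P3, in libraries where 3 of 7 microglia markers were called higher and none lower. Its call was lost without P9 replicates 5 and 6 (edgeR adjusted p = 0.0550). Itgb4, the beta chain of epithelial laminin receptors, was called lower at 1.2016 ± 0.330 CPM at P9 against 3.74 ± 3.25 CPM at P3, and was not called by limma-voom (adjusted p = 0.0616). The parts of microglia and epithelia were not tested.

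Of 21 genes of integrin ligands, 12 were called higher, 2 lower and 7 were not called, with a median log2 fold change of 0.75. Among all tested genes 26.1% were called higher and 25.6% lower. Lama4, the laminin alpha chain of vessel walls, averaged 86.2 ± 25.9 CPM at P9 and 16.9 ± 7.08 CPM at P3 (SD, n = 6 each; 5.09-fold; edgeR adjusted p = 8.96e-06). Edil3 and Mfge8, secreted RGD proteins that bind alpha v integrins, rose 3.82-fold to 56.1 ± 12.2 CPM and 3.20-fold to 247 ± 34.9 CPM. Lama1 was lower, at 39.7 ± 5.71 CPM at P9 and 95.1 ± 12.2 CPM at P3, and so was Lama5, a gene named after its values were seen (log2 fold change -0.45).

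The partners of vitronectin in proteolysis were called in all 6 cases, 5 of them higher. Over all tested genes 51.8% were called in either direction and 26.1% were called higher. Serpine2, which encodes a protease inhibitor, averaged 185 ± 51.2 CPM at P9 and 47.9 ± 23.7 CPM at P3 (SD, n = 6 each; log2 fold change 1.95 ± 0.29, SE; edgeR adjusted p = 6.36e-05). The plasminogen activator genes Plat and Plau rose 2.63-fold to 67.3 ± 14.3 CPM and 2.35-fold to 2.29 ± 0.699 CPM. Named after their values were seen were the urokinase receptor gene Plaur (log2 fold change 1.99, at 1.11 CPM at P9 and 0.275 CPM at P3) and Lrp1, an endocytic receptor. Lrp1 was lower, with a log2 fold change of -0.26. It was no longer called without P3 replicate 4, without P3 replicates 4 and 5 together, without P9 replicates 5 and 6, without the filter on low counts or at an adjusted p of 0.01.

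Of 9 genes around the activation of latent TGF-beta, where Itgb8 acts, 4 were called higher and 3 lower. The shares over all tested genes were 26.1% higher and 25.6% lower. Lrrc32, which encodes GARP, a cell surface anchor that presents latent TGF-beta to alpha v integrins, averaged 39.5 ± 12.3 CPM at P9 and 5.08 ± 3.33 CPM at P3 (SD, n = 6 each; log2 fold change 2.95 ± 0.37, SE; edgeR adjusted p = 1.15e-05). The ligand gene Tgfb1 rose 4.20-fold to 9.55 ± 1.94 CPM and Tgfb2 2.32-fold to 212 ± 28.2 CPM, and the receptor gene Tgfbr2 rose 3.15-fold to 14.4 ± 3.92 CPM. The lower ones, named after their values were seen, were Ltbp1, Ltbp3 and Tgfbr1 (log2 fold changes -1.45, -0.51 and -0.62).

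Inside the cell, 11 of 21 tested genes of the proteins that link integrins to actin were called higher and 4 lower, with a median log2 fold change of 0.22. Among all tested genes the shares were 26.1% higher and 25.6% lower. Tns1, a tensin that binds beta chain tails, averaged 80.5 ± 24.9 CPM at P9 and 21.0 ± 7.01 CPM at P3 (SD, n = 6 each; log2 fold change 1.94 ± 0.24, SE; edgeR adjusted p = 9.58e-06). The integrin activators Fermt2 (kindlin-2) and Tln2 (talin-2) rose 1.66-fold to 112 ± 12.7 CPM and 1.55-fold to 161 ± 11.3 CPM, and the adaptor gene Bcar1 1.74-fold to 58.6 ± 4.63 CPM. The 4 that were lower, named after their values were seen, were Pxn, Src, Tns3 and Sharpin, with log2 fold changes between -0.42 and -0.31. Tns3 was no longer called without P3 replicate 4 (edgeR adjusted p = 0.0523). Nor was Tns3 called without P3 replicates 4 and 5 together (edgeR adjusted p = 0.118) or without P9 replicates 5 and 6 (0.116).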

How the data were processed

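Each deposited table holds expected counts for 1 library, which the authors estimated per gene with RSEM and did not scale to depth. Of the values, 15.9% were fractional. The submitters' processing notes also list FastQC, Trim Galore, STAR, limma and mm10. Tool versions and gene annotation were not given in the sources used here. Per the labels, libraries came from a stranded NuGEN mRNA kit after HA immunoprecipitation.

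Groups are the ages in the labels. Replicates were numbered in accession order and are not paired. Of the P9 group, replicates 5 and 6 have crossed sample names, which leaves the age unchanged.

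Expected counts were rounded, filtered with filterByExpr and scaled by TMM. The ages were compared by edgeR 4.0.16 (quasi-likelihood, R 4.3.3), with Benjamini-Hochberg adjustment over 18638 genes. The SE is the absolute log2 fold change divided by the square root of F. A gene at 1 CPM rests on 25.8 to 38.5 counts per library. Ratios, marker means and correlations were taken on log2 CPM after a prior count of 2. Correlations were tested over all 720 orders of 6 libraries. Gene coordinates are RefSeq's on GRCm38.p6 (mm10), matched by symbol.

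All 10 members were named, other integrins with at least 1 CPM at either age, and up to 4 called genes with the smallest adjusted p of each other list, except that some genes counted in the lists are not reported here by name. The members and lists were chosen with earlier results of these data known. The procedure was tested on simulated counts. Alternatives were other factors, filters and thresholds, DESeq2 1.42.0, limma-voom (limma 3.58.1), left-out libraries, a prior count of 0.5 and 3 pericyte markers. Rod markers were added after seeing the data.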

Additional observations from a re-analysis of the deposited data

Results flagged for a closer look

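In 8 of 118 sets of 6 libraries examined, 1 library stood far from the other 5, and chance alone gives about 1 in 20. The sets were the members, the list genes taken by the naming rule above and the ratios, at each age. Genes named after their values were seen, marker genes and the genes most like Vtn were not among them. No member and no ratio was among the 8 flagged sets. P9 replicate 2 was the highest of its age for Plat (95.0 CPM, next 67.0), Tgfbr2 (22.05 CPM, next 14.5) and Tns1 (128 CPM, next 80.1). P9 replicate 3 was the highest for Itga2 (10.6 CPM, next 5.83) and Lama1 (50.5 CPM, next 40.1). At P3, replicate 1 was the highest for Itgb4 (9.81 CPM, next 4.35), replicate 2 the highest for Itgax (1.61 CPM, next 0.692) and replicate 3 the lowest for Plau (0.659 CPM, next 0.963).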

How the results depend on the processing

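The counts of 4868 genes higher and 4779 lower at P9 stayed within 1.5 times under all 23 alternatives. The count of members called higher was 7 or 8. The single member called lower, Itgb8, became 0 at an adjusted p under 0.01 and without P3 replicates 4 and 5. Log2 fold changes of all 10 members kept their sign. Scaling moved the median of all genes by at most 0.012. Itgb3 was not tested at a mean of at least 10 CPM. Without 1 library at a time, the P9 minus P3 log2 ratio ran from -0.56 to -0.32 for Itga5 over Itgb1, from 0.20 to 0.33 for Itgav over Itgb1 and from 0.37 to 0.63 for Itga1 over the pericyte mean. Without P3 replicates 4 and 5, Itgb5 over Itgb1 was -0.17. Without P9 replicates 5 and 6, Itga5 over Itgb1 was -0.35, Itgb3 over the pericyte mean -0.77 and Itga1 over it 0.57. Against Pdgfrb, Cspg4 and Rgs5 only, Itga1 over the mean was 0.096, and against rod markers it turned to -0.46. With those 3 pericyte genes, r fell short of the threshold for Itgb5 (0.90), Itga5 (0.85) and Itga7 (0.81) at P9 and for Vtn (0.81) at P3. With rod markers, r at P9 turned negative for Itgb1 (-0.74), Itgb3 (-0.70), Itgb5 (-0.81), Itga1 (-0.59), Itga5 (-0.78) and Itga7 (-0.67), and that of Vtn at P3 was 0.91 without passing. The causes were not tested. No paired analysis was possible because no label numbers the replicates. At an adjusted p under 0.01, Itga10, Itgb2, Lrp1 and Tns3 were also not called. Itgb3, Itgax, Itgb2 and Plaur rest on few counts per library, with lowest counts of 27, 9, 7 and 1 in that order. Other named genes with few counts in at least 1 library include Spp1, Plau, Itga11 and Tgfb1, with lowest counts of 2, 17, 21 and 28.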

Other observations

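Further genes of the integrin ligand list, named after their values were seen, encode matrix proteins that the member integrins bind. The collagen IV genes Col4a1 and Col4a2 averaged 1029 ± 317 and 676 ± 192 CPM at P9, against 476 ± 143 and 401 ± 123 CPM at P3 (SD, n = 6 each; log2 fold changes 1.11 and 0.75; edgeR adjusted p = 0.000619 and 0.00783). The laminin chain genes Lamb1 and Lamc1 were called higher at 135 ± 34.7 and 183 ± 36.5 CPM at P9, against 66.6 ± 16.7 and 99.0 ± 24.6 CPM at P3. Npnt, which encodes nephronectin, the ligand of alpha 8 beta 1, was higher at 53.6 ± 5.64 CPM at P9 against 33.0 ± 7.43 CPM at P3 (log2 fold change 0.70 ± 0.13, SE; edgeR adjusted p = 0.000432), with no overlap between the ages. Spp1, the gene of the RGD protein osteopontin, was called higher but varied widely, at 9.62 ± 9.44 CPM at P9 against 1.26 ± 1.22 CPM at P3.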
